A study of Mus musculus with 10 samples.

Results

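The unfolded protein response and its ATF4 stress arm were followed in the liver through 40 genes listed by symbol, with no measured value in the rule, although the list was drawn up with earlier results of these data known. Of the 40, 37 were among the 12148 genes of the count table and were tested with 12147 genes in all, whereas *Derl3*, *Nupr1* and *Phgdh* were not analysed here. The members fell into 25 genes of endoplasmic reticulum (ER) folding, ER-associated degradation and stress sensing, and 15 genes of the ATF4 arm. The livers came from wild-type, germ-free C57BL/6 mice, which carry no microbiota of their own. 5 mice received microbiota-derived extracellular vesicles in PBS by mouth (GF+MEV), which the study isolated from the cecal contents or feces of donor mice, and 5 received PBS alone (GF+PBS). Doses of 80 µg were given 2 times a week for 3 weeks. The age and sex of these mice are not given in the sources used here, and nothing in them says how many cages or MEV preparations stand behind each group. Whole liver was sequenced, at 15746119 to 20523649 counts on genes per library, so fewer cells of a type and less RNA per cell cannot be told apart. The p-values measure only the spread between these livers.

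When unfolded proteins build up in the ER, 3 membrane sensors respond. IRE1, encoded by *Ern1*, splices the *Xbp1* transcript into the form that makes an active transcription factor. ATF6 is cut free from the membrane to become one, and PERK, encoded by *Eif2ak3*, phosphorylates the translation factor eIF2 alpha. This slows general translation while the transcription factor ATF4 is made more efficiently, and ATF4 raises amino acid supply genes, the pro-apoptotic factor *Ddit3* (CHOP) and *Ppp1r15a*, whose product brings a phosphatase back to eIF2 alpha. Kinases that sense amino acid shortage, heme or viral RNA feed into the same ATF4 arm, and hepatocytes, which secrete most plasma proteins, carry a large ER. Gene counts report total transcript only, so neither the splicing of *Xbp1*, the cleavage of ATF6 nor the phosphorylation of eIF2 alpha was measured.

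4 of the 37 members differed between the groups. *Herpud1*, an ER membrane protein that helps assemble the degradation complex, was 2.40-fold higher in GF+MEV, and *Ppp1r15a* (GADD34) was 1.73-fold higher. *Xbp1* and *Atf4*, the transcription factors at the head of the IRE1 and PERK branches, were 1.31-fold and 1.28-fold higher in GF+PBS. None of the 14 chaperones and disulfide isomerases among the members passed the test. By edgeR's quasi-likelihood test with an adjusted p under 0.05, 7.64% of all genes tested were called, 4.12% higher and 3.52% lower in GF+MEV, so a count of 4 in 37 stood near this background. The median log2 fold change was 0.06 over the members and -0.0037 over all genes.

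Promoter sequences are shown for the 2 members that rose, and for members whose window holds the ER stress element. Windows from 250 bases before to 50 bases after the annotated start were taken from RefSeq (GRCm38.p6), which held a window for 35 of the 40 members. They were searched on both strands for the ER stress element ERSE (CCAAT, any 9 bases, then CCACG), for ERSE-II (ATTGG, any 1 base, then CCACG), for the core of the XBP1 element UPRE (TGACGTGG), for the C/EBP-ATF response element CARE that ATF4 dimers bind (TGATGNAA) and for the cyclic AMP response element CRE (TGACGTCA). The UPRE core and the CRE share the letters TGACGT, and the UPRE core also holds CGTGG, which reads CCACG on the other strand. Of all 32851 windows, 0.119% held an ERSE, 0.037% an ERSE-II, 0.676% a UPRE core, 3.97% a CARE and 1.79% a CRE. These are shares of windows and not of genes. Of the 9370 genes of the count table with a window, 0.181% held an ERSE and 0.096% an ERSE-II. For the UPRE core, CARE and CRE the shares of these genes were 1.035%, 2.828% and 3.458%. Of the 35 members with a window, ERSE was matched in 9, ERSE-II in 2, CARE in 5, CRE in 1 and the UPRE core in none. The 120 bases directly before the RefSeq start of *Herpud1* (chr8:94386309-94386428, GRCm38.p6, plus strand) hold a CARE on the other strand and an ERSE-II, both in capitals:
Herpud1: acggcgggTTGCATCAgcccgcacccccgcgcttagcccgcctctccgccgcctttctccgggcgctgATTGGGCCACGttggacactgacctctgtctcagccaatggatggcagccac

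For *Ppp1r15a*, the 60 bases directly before the gene (chr7:45526269-45526328, GRCm38.p6, minus strand) hold a CRE, in capitals, and the window held none of the other motifs:
Ppp1r15a: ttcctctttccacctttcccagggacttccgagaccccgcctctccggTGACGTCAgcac

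The 9 members with an ERSE match are the chaperones and co-chaperones *Hspa5*, *Hsp90b1*, *Dnajc3* and *Creld2*, the lectins *Calr* and *Canx*, the disulfide isomerase gene *Pdia6*, and *Syvn1* and *Derl3* of ER-associated degradation. 4 of the matches are given as examples, each 5′ to 3′ on the strand that reads CCAAT first, with the fixed letters in capitals. The *Hspa5* match is at chr2:34772025-34772043, within an annotated *Hspa5* exon, and the others given are at chr8:84847075-84847093 (*Calr*), chr14:118937827-118937845 (*Dnajc3*) and chr19:6046532-6046550 (*Syvn1*).
Hspa5: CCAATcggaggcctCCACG
Calr: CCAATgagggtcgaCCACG
Dnajc3: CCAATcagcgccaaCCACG
Syvn1: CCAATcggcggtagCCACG

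The 8 tested members with an ERSE match were *Hspa5*, *Hsp90b1*, *Calr*, *Canx*, *Pdia6*, *Dnajc3*, *Creld2* and *Syvn1*. Their log2 fold changes lay between -0.06 and 0.20, and none was called. Of all genes tested, edgeR called 7.64%, so no call among 8 stood near this background. The other ERSE-II match lay in *Dnajb11* (chr16:22857852-22857862, plus strand, within its first annotated bases), whose log2 fold change was 0.11 with an adjusted p of 0.35 by edgeR. A match describes letters only and says nothing about which factor was bound.

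The transcript of *Herpud1* (ENSMUSG00000031770, chr8:94386438-94395377, plus strand) showed the largest difference among the members. Levels were given as CPM, a gene's counts relative to all counts of its library, after TMM scaling, which corrects each library for its size and composition. The 5 GF+MEV livers held 701, 732, 687, 578 and 676 CPM, and the 5 GF+PBS livers held 247, 289.9, 240.1, 325 and 305 CPM. Every GF+MEV liver lay far above every GF+PBS liver, the closest pair being separated by the gap from 325 to 578 CPM. The log2 fold change was 1.26 (SE 0.10, n = 5 per group, 95% interval 1.03 to 1.51 from log2 CPM), with an adjusted p of 5.78e-07 by edgeR. Per length of exon, *Herpud1* rose from 121 ± 15.9 to 289 ± 24.9 RPKM (CPM per kilobase of exon, mean ± SD, n = 5). It stood second among the 37 members in GF+PBS livers on that scale, below *Calr* at 233 ± 5.52 RPKM, and above *Calr*, at 225 ± 26.4 RPKM, in GF+MEV livers. No annotated exon of another gene overlaps it.

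The other tested genes of ER-associated degradation, which draw misfolded proteins out of the ER lumen for destruction by the proteasome, were not called. *Syvn1* (HRD1), the ubiquitin ligase of the same complex, held 67.5 to 89.2 CPM in GF+MEV and 66.4 to 72.2 CPM in GF+PBS livers, and its partner *Sel1l* held 131 to 139 against 105 to 142 CPM. The derlins *Derl1* and *Derl2*, which form part of the exit channel, and *Edem1*, a mannosidase-like factor that marks glycoproteins for removal, had log2 fold changes of 0.02, -0.09 and -0.02. All 5 genes overlapped between the groups, and their edgeR adjusted p-values ranged up to 0.912. Within each liver, the ratio of *Herpud1* to *Syvn1* counts was 7.87 to 9.98 in GF+MEV and 3.34 to 4.70 in GF+PBS, a log2 difference of 1.19 (SE 0.12, exact two-sided permutation p = 0.00794). That ratio does not depend on how libraries were scaled, and 0.00794 is the smallest p that 5 livers against 5 can give. The pair was chosen after its values were seen, as were 4 other pairs given further on. Each pair set a called member without overlap between the groups against an uncalled one, so a small p was largely fixed by that choice. All 5 had a Benjamini-Hochberg adjusted p of 0.00794 over these pairs alone, which does not correct for the choice.

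**Figure D1:**
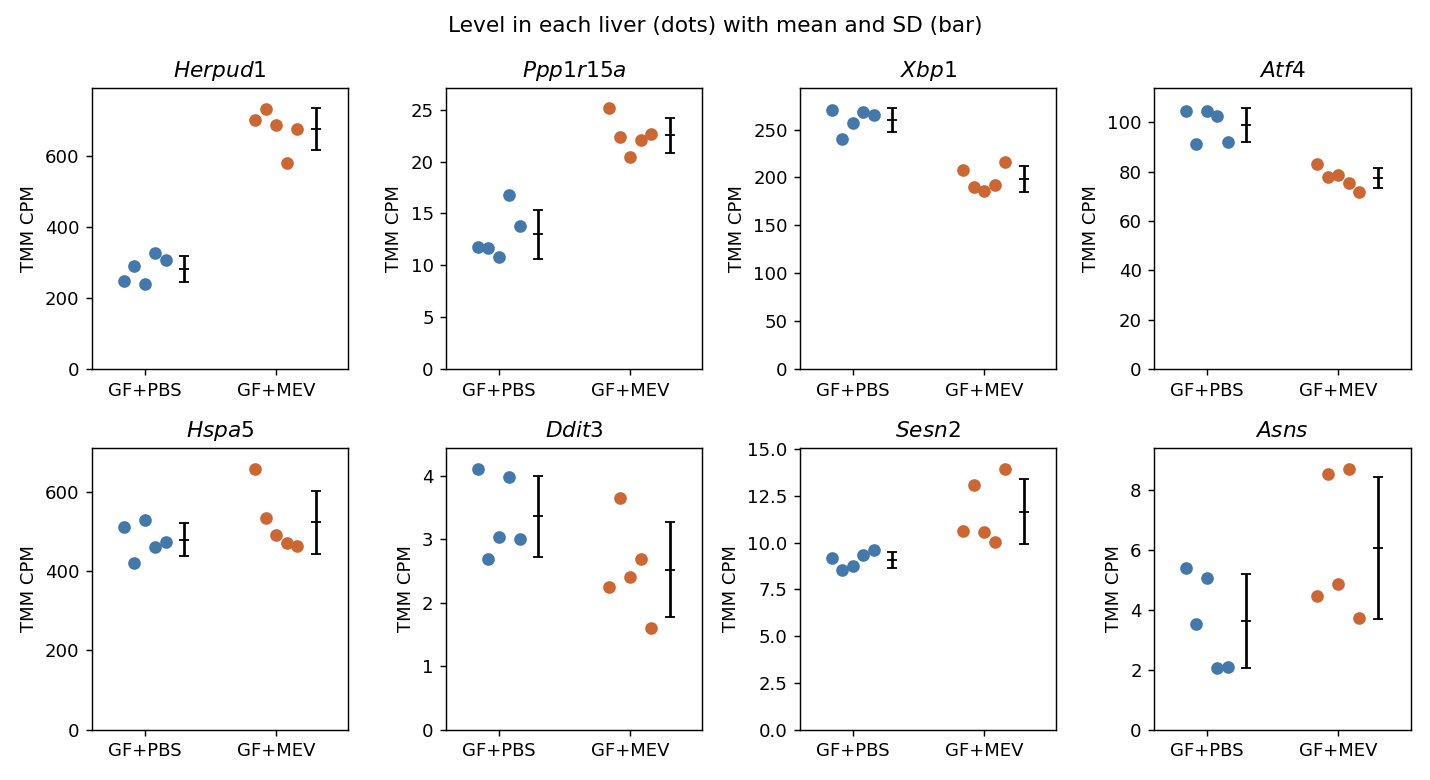
TMM CPM of 8 members in each liver (dots, GF+PBS in blue and GF+MEV in orange), with the group mean and SD as a bar, and each vertical axis from 0. *Herpud1*, *Ppp1r15a* and *Sesn2* were higher in all 5 GF+MEV livers and *Xbp1* and *Atf4* lower, with no overlap, while *Hspa5*, *Ddit3* and *Asns* overlapped.

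The 14 members that fold proteins in the ER did not pass the test. *Hspa5* (BiP), the chaperone that binds unfolded chains and keeps the sensors inactive, held 658, 534, 491, 472 and 464 CPM in GF+MEV and 513, 422, 530.2, 462 and 475 CPM in GF+PBS livers. GF+MEV replicate 1 was highest and GF+PBS replicate 2 lowest, and the other 8 livers were interleaved. The log2 fold change was 0.12 (SE 0.11, 95% interval of the difference in log2 CPM -0.14 to 0.37), with an adjusted p of 0.5 by edgeR. *Herpud1* set against *Hspa5* in the same liver gave a ratio of 1.07 to 1.46 in GF+MEV and 0.453 to 0.704 in GF+PBS, a log2 difference of 1.15 (SE 0.16, exact two-sided permutation p = 0.00794).

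Over 11 chaperones and co-chaperones and 3 disulfide isomerases, 0 of 14 were called by edgeR and 0 had an unadjusted p under 0.05. As edgeR called 7.64% of all genes tested, no call among 14 stood near this background. DESeq2 and limma-voom called none of these 14 genes either. Their log2 fold changes lay between -0.19 (*Sdf2l1*, part of a co-chaperone complex) and 0.20 (*Creld2*, a secreted ER protein), or 0.880-fold to 1.15-fold, with a median of 0.05. The 95% intervals of all 14 lay within 0.6 of 0 on the log2 scale, and those of 11 within 0.4. Such intervals still hold a modest change in a single gene. The lowest count of any of these genes in a library was 267.

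*Hsp90b1* (GRP94) averaged 297 ± 20.2 CPM in GF+MEV and 281 ± 16.4 CPM in GF+PBS (SD, n = 5), and 15.7% of its exon bases are shared with other annotated genes. *Calr* and *Canx*, the lectins that hold glycoproteins during folding, averaged 647 ± 76.1 against 670.0 ± 15.9 CPM and 268 ± 16.2 against 256 ± 8.64 CPM. *Pdia3*, *Pdia4* and *Pdia6*, which form and exchange disulfide bonds, had log2 fold changes of -0.01, -0.07 and -0.06. All 6 genes overlapped between the groups.

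Among the co-chaperones, *Dnajb9* (ERdj4) held 25.7 to 40.2 CPM in GF+MEV and 30.7 to 39.7 CPM in GF+PBS livers, *Dnajb11* held 70.6 to 84.9 against 67.0 to 76.7 CPM, and *Dnajc3* (p58IPK) held 202 to 259 against 196 to 223 CPM. *Hyou1*, an ER chaperone related to HSP70, held 100.4 to 152 against 98.7 to 123 CPM. *Manf*, a secreted survival factor, spread from 20.5 to 39.7 CPM in GF+MEV and from 21.4 to 35.3 CPM in GF+PBS livers, and shares 9.25% of its exon bases with other genes.

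These 14 genes tended to share their high and low livers. In GF+PBS, replicate 1 was the highest liver for 9 of 14 and replicate 2 the lowest for 10 of 14. In GF+MEV, the highest liver was replicate 1 for 7 and replicate 4 for 7, and the lowest was replicate 3 for 8 and replicate 5 for 6. The mean of the 14 genes relative to the GF+PBS mean, on the log2 scale, ran from -0.13 to 0.15 over GF+MEV livers and from -0.14 to 0.14 over GF+PBS livers, so the groups covered nearly the same range. The genes share libraries and are not independent, and this is a description only.

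**Figure D2:**
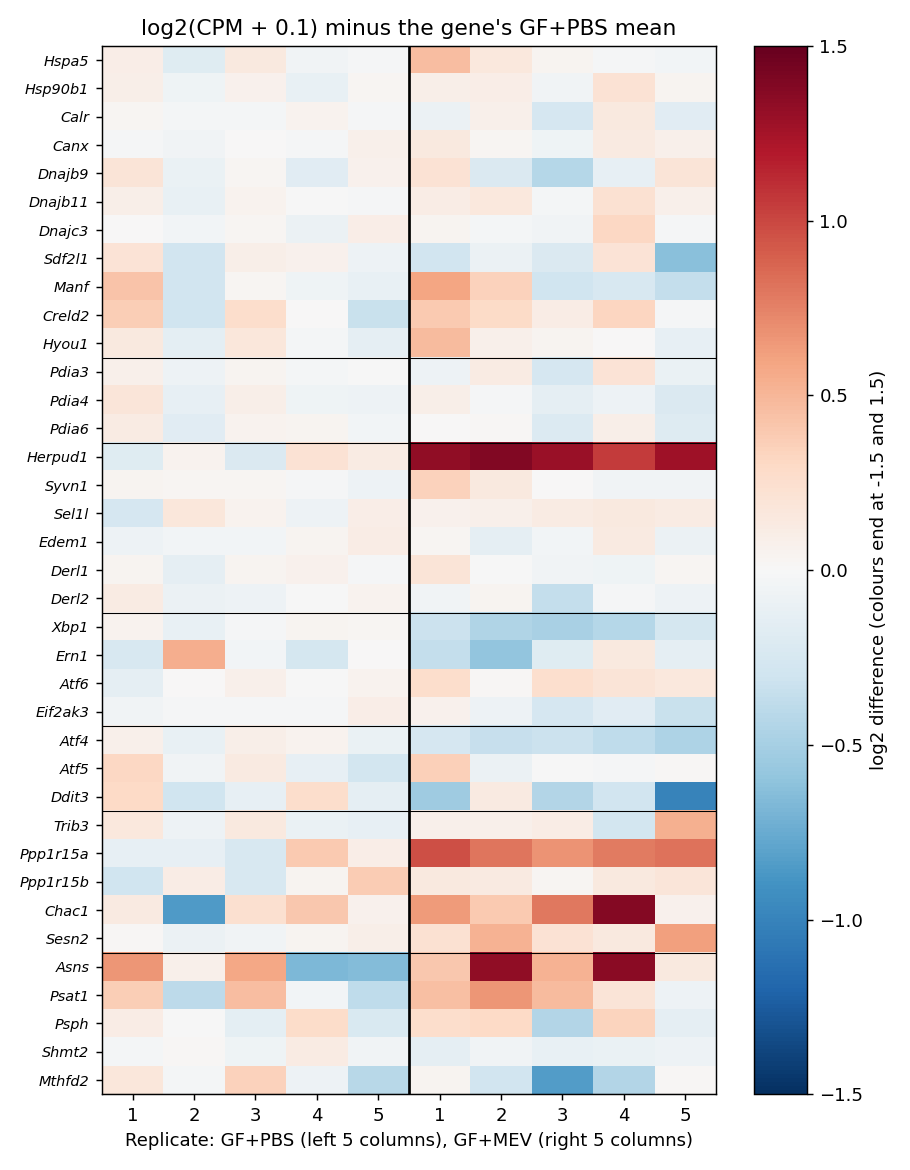
Heatmap of log2 CPM of the 37 members (rows, by role) minus each gene's GF+PBS mean, in the 5 GF+PBS livers (left) and the 5 GF+MEV livers (right), red for higher and blue for lower. The *Herpud1* and *Ppp1r15a* rows are red in all 5 GF+MEV livers and the *Xbp1* and *Atf4* rows blue. The 14 folding genes above them mostly vary by liver. Among the 5 GF+PBS livers alone, replicate 1 was highest for 9 of 14 and replicate 2 lowest for 10 of 14.

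Of the sensors and their transcription factors, *Xbp1* (ENSMUSG00000020484, chr11:5520659-5525893, plus strand) was the only called gene. It held 208, 189.8, 186, 192 and 216 CPM in GF+MEV and 270.1, 239.8, 256, 268 and 265 CPM in GF+PBS livers. The highest GF+MEV liver, at 216 CPM, lay below the lowest GF+PBS liver, at 239.8 CPM. It fell by 0.39 on the log2 scale (SE 0.05, n = 5 per group), with an adjusted p of 0.000752 by edgeR, and the 95% interval of the difference in log2 CPM was -0.51 to -0.27. Reads of the spliced and the unspliced form are not separated in these counts.

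*Xbp1* is also strongly expressed by plasma cells, so markers of other liver cells were read beside it. Of 11 genes of the plasma and B cell list, 7 were tested, 2 were lower in GF+MEV (*Cd79a*, log2 fold change -0.87, adjusted p 0.00715, and *Cd79b*, -0.76, adjusted p 0.0316, edgeR) and none higher. *Jchain*, *Mzb1*, *Iglc2* and *Tnfrsf17*, the more plasma-cell-specific genes of the list, were not analysed here. The 6 tested genes other than *Sdc1*, which hepatocytes also express, summed to 12.4 to 21.5 CPM in GF+MEV and 19.3 to 29.3 CPM in GF+PBS livers. Such sums do not give the amount of *Xbp1* transcript that comes from these cells. The 7 hepatocyte genes, which included *Alb*, were tested and none was called, with sums of 90720 to 111200 CPM in GF+MEV and 94810 to 112100 CPM in GF+PBS livers. None of 11 Kupffer cell and macrophage genes or 8 stellate cell genes was called, whereas *Lyve1* was higher and *Clec4g* lower among 8 endothelial genes and *Krt19* was higher among 3 tested cholangiocyte genes. The part of these cells in the members' differences was not tested.

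The 3 sensor genes themselves did not pass the test. *Atf6* held 82.4, 69.7, 82.0, 78.7 and 76.7 CPM in GF+MEV and 62.6, 69.0, 72.3, 68.6 and 71.0 CPM in GF+PBS livers (log2 fold change 0.18, adjusted p 0.0973, edgeR). Without GF+MEV replicate 2, the one GF+MEV liver that fell within the GF+PBS range, it was called (0.22, adjusted p 0.0435, edgeR). *Xbp1* set against *Atf6* in the same liver was 2.26 to 2.82 in GF+MEV and 3.47 to 4.31 in GF+PBS, a log2 difference of -0.57 (SE 0.08, exact two-sided permutation p = 0.00794). *Ern1* had a log2 fold change of -0.23 (adjusted p 0.419) and *Eif2ak3* of -0.15 (adjusted p 0.337), both by edgeR and both overlapping between the groups. In *Eif2ak3*, 8.05% of the exon bases also belong to an antisense gene.

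Within the ATF4 arm, 1 of 13 tested genes was called higher and 1 lower, against 4.12% and 3.52% of all genes tested. *Atf4* itself (ENSMUSG00000042406, chr15:80255184-80257541, plus strand) held 82.9, 77.8, 78.6, 75.6 and 71.6 CPM in GF+MEV and 104, 91.0, 105, 102 and 92.0 CPM in GF+PBS livers. All GF+MEV livers lay below all GF+PBS livers. *Atf4* fell by 0.36 on the log2 scale (SE 0.06, n = 5 per group, 95% interval -0.48 to -0.22 from log2 CPM), with an adjusted p of 0.00237 by edgeR. Its protein level, which is set mainly in translation, was not measured.

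The other 2 transcription factors of the arm were not called. *Atf5*, a factor regulated in translation like *Atf4* and abundant in liver, averaged 241 ± 30.7 CPM in GF+MEV and 233 ± 37.7 CPM in GF+PBS livers (SD, n = 5), and 8.23% of its exon bases are shared with genes on the other strand. The ratio of *Atf4* to *Atf5* was 0.282 to 0.359 in GF+MEV and 0.364 to 0.484 in GF+PBS livers, a log2 difference of -0.41 (SE 0.10, exact two-sided permutation p = 0.00794). *Ddit3* (CHOP) held 2.26, 3.66, 2.41, 2.695 and 1.61 CPM in GF+MEV and 4.11, 2.69, 3.04, 3.99 and 3.002 CPM in GF+PBS livers. GF+MEV replicate 2 lay among the GF+PBS livers, replicate 4 was level with the lowest of them and the other 3 lay below. The log2 fold change of -0.42 had an SE of 0.22 and an adjusted p of 0.249 by edgeR. It rested on 25 to 79 counts per library, and 10.9% of the exon bases are shared with other annotated genes.

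*Ppp1r15a* (ENSMUSG00000040435, chr7:45522916-45526268, minus strand) was the called gene among the feedback and stress targets of the arm. Its product ends the translational block by guiding a phosphatase to eIF2 alpha. The GF+MEV livers held 25.1, 22.4, 20.4, 22.1 and 22.6 CPM and the GF+PBS livers 11.8, 11.7, 10.8, 16.8 and 13.8 CPM. No GF+PBS liver reached the lowest GF+MEV liver, and the nearest was GF+PBS replicate 4 at 16.8 CPM. *Ppp1r15a* rose by 0.79 on the log2 scale (SE 0.12, n = 5 per group, 95% interval 0.53 to 1.09 from log2 CPM), with an adjusted p of 0.000364 by edgeR.

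The constitutive partner of the same phosphatase, *Ppp1r15b* (CReP), held 75.5 to 83.8 CPM in GF+MEV and 60.4 to 96.6 CPM in GF+PBS livers (log2 fold change 0.11, adjusted p 0.623, edgeR). In *Ppp1r15b*, 11.4% of the exon bases also belong to an antisense gene. The ratio of *Ppp1r15a* to *Ppp1r15b* was 0.270 to 0.307 in GF+MEV and 0.142 to 0.220 in GF+PBS livers, a log2 difference of 0.68 (SE 0.12, exact two-sided permutation p = 0.00794). *Ppp1r15a* counts were below those of *Ppp1r15b* in every liver.

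*Sesn2* (sestrin 2), a stress protein that restrains mTORC1, did not overlap between the groups but missed the threshold. It held 10.6, 13.1, 10.6, 10.05 and 13.9 CPM in GF+MEV and 9.16, 8.52, 8.75, 9.35 and 9.61 CPM in GF+PBS livers. GF+MEV replicates 2 and 5 stood apart above the rest, and the lowest GF+MEV liver was close to the highest GF+PBS liver. The log2 fold change was 0.36 (SE 0.10), with an adjusted p of 0.0525 by edgeR. DESeq2 called it (0.36, adjusted p 0.0298), and so did edgeR without GF+MEV replicate 4 (0.41, adjusted p 0.0361). With *Sesn2*, 5 members had no overlap between the groups, 3 higher and 2 lower in GF+MEV, against 7.39% of all genes tested (3.94% higher and 3.45% lower).

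*Chac1*, which breaks down glutathione, and *Trib3*, a pseudokinase induced through ATF4 and CHOP, overlapped between the groups. *Chac1* held 6.95, 5.86, 7.73, 11.7 and 4.63 CPM in GF+MEV and 4.89, 2.41, 5.24, 5.91 and 4.62 CPM in GF+PBS livers (log2 fold change 0.68, SE 0.31, adjusted p 0.114, edgeR). GF+MEV replicate 4 was the highest liver and GF+PBS replicate 2 the lowest. *Trib3* held 29.3 to 51.3 against 32.4 to 39.7 CPM, a log2 fold change of 0.12 with an adjusted p of 0.611 by edgeR.

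The synthesis enzymes of the arm, which make asparagine, serine and one-carbon units, held no called gene among 5 tested. *Asns* (asparagine synthetase), a widely used readout of amino acid shortage, held 4.45, 8.56, 4.88, 8.70 and 3.73 CPM in GF+MEV and 5.39, 3.53, 5.06, 2.07 and 2.10 CPM in GF+PBS livers. GF+MEV replicates 2 and 4 were high, GF+PBS replicates 4 and 5 low and the other 6 livers mixed. The log2 fold change of 0.74 carried an SE of 0.38 and an adjusted p of 0.166 by edgeR. *Psat1* and *Psph* of serine synthesis, at 1.01 to 2.21 CPM and 2.90 to 4.997 CPM over all livers, had log2 fold changes of 0.34 and 0.07. The mitochondrial folate enzymes *Shmt2* and *Mthfd2* had log2 fold changes of -0.10 and -0.32. *Shmt2* was abundant, at 282 ± 5.70 CPM in GF+MEV and 301 ± 15.6 CPM in GF+PBS livers (SD, n = 5), whereas *Mthfd2* rested on 19 to 37 counts per library. In *Psph*, 10.4% of the exon bases are shared with *Cct6a* on the other strand.

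**Figure D3:**
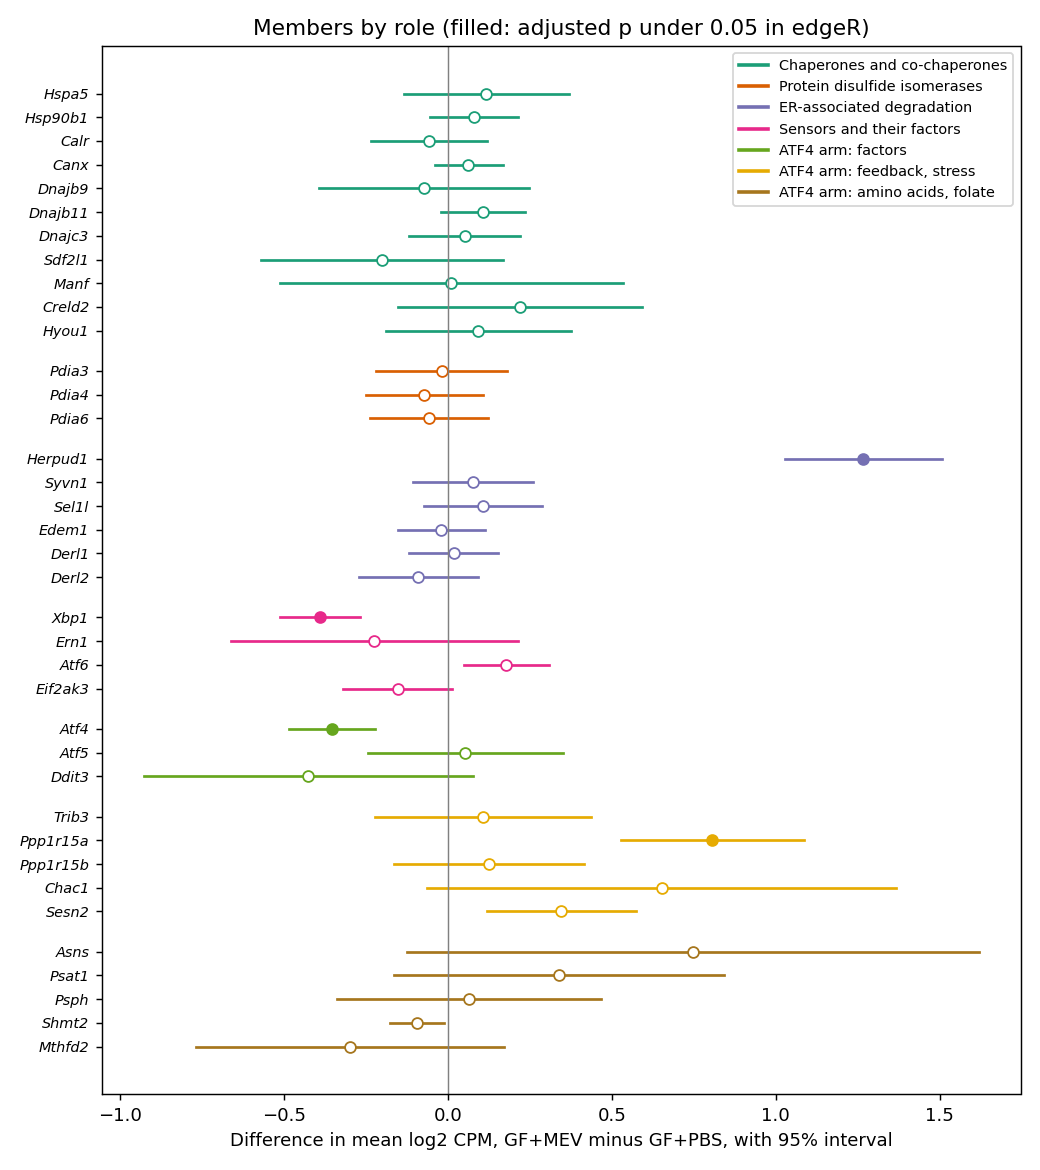
Difference in mean log2 CPM, GF+MEV minus GF+PBS, of the 37 members grouped by role (points), with the 95% interval (lines) and filled points where edgeR's adjusted p was under 0.05. *Herpud1* (1.03 to 1.51) and *Ppp1r15a* (0.53 to 1.09) lie right of 0, *Xbp1* and *Atf4* lie left of it, and the intervals of the 14 folding genes stay within 0.6 of 0.

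Over the 33 members that were not called, log2 fold changes ran from -0.42 to 0.74, and 27 lay within 0.25 of 0.

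Some libraries stood apart. In GF+MEV replicate 2, 3 abundant genes (*CT010467.1*, *Gm23935* and *Lars2*) took 9.24% of counts against 0.153% to 0.409% in the other libraries. GF+PBS replicates 1 and 3 held 19.5 and 23.1 CPM of the clock gene *Per3*, whereas the remaining 3 livers of that group held 57.7 to 68.1 CPM. The clock genes *Per1* and *Ciart* were higher and *Nr1d1* and *Bhlhe41* lower in GF+MEV, and the part of time of day or feeding in the members' differences was not tested. Without GF+MEV replicate 2 the log2 fold changes were 1.23 for *Herpud1*, 0.80 for *Ppp1r15a*, -0.37 for *Xbp1* and -0.36 for *Atf4*. Without GF+PBS replicates 1 and 3 they were 1.14, 0.67, -0.38 and -0.30, and all 4 genes were called by edgeR under both. *Creld2* (0.43, adjusted p 0.0415) and *Asns* (1.24, adjusted p 0.0292) joined the called genes without GF+PBS replicates 1 and 3.

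Around the members, 9 lists of other genes of the same pathways were read, which hold 199 distinct genes, of which 185 were tested, 12 called higher and 2 lower, with a median log2 fold change of 0.02. These 14 calls in 185 stood near the 7.64% of all genes called. The lists were chosen with earlier results of these data known. Of 33 further folding and glycan quality control genes, *Pdia5*, a disulfide isomerase, was the 1 called gene (log2 fold change 0.28, adjusted p 0.00985, edgeR). None of 28 tested genes of the translocon, signal peptidase and signal recognition particle was called, with log2 fold changes from -0.09 to 0.17. Of 29 other genes of ER-associated degradation, *Edem3* (0.31, adjusted p 0.0311) and *Ube2g2* (0.29, adjusted p 0.0447) were higher by edgeR. *Edem3* trims mannose from glycoproteins and *Ube2g2* is a ubiquitin-conjugating enzyme of the pathway. Among 10 tested genes of the ATF6 and CREB3 families and their processing, *Nfyb*, a subunit of the factor that binds CCAAT, was lower (-0.30, adjusted p 0.045, edgeR). These last 3 calls depended on the setting, as over 22 alternatives *Edem3* stayed called in 13, *Nfyb* in 11 and *Ube2g2* in 10. The *Edem3* call ended without GF+MEV replicate 1 or 4 or GF+PBS replicate 1 or 4. The *Ube2g2* call ended without any 1 liver other than GF+MEV replicate 3 or GF+PBS replicate 1 or 3, and the *Nfyb* call without any 1 liver other than GF+MEV replicate 1. None of 9 tested transcripts reported as targets of IRE1-dependent RNA decay was called (median -0.07). *Bloc1s1*, the remaining gene of that list, was not analysed here.

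None of 18 eIF2 alpha kinases and translation factors and none of 20 aminoacyl-tRNA synthetases of the cytosol was called, with log2 fold changes from -0.13 to 0.25 and from -0.17 to 0.18. Of 32 genes reported as ATF4 or CHOP targets, 23 were tested. Of these 23, 7 were higher and 1 lower, against 4.12% and 3.52% of all genes tested, while their median log2 fold change was 0.06. *Ddit4* (REDD1), an inhibitor of mTORC1 that glucocorticoids and other stresses also induce, averaged 83.4 ± 18.6 CPM in GF+MEV and 5.30 ± 0.814 CPM in GF+PBS livers (log2 fold change 3.98, SE 0.18, adjusted p 2.96e-09, edgeR). The secreted stress factor *Gdf15* rose from 4.41 ± 2.21 to 21.03 ± 10.05 CPM (2.25, adjusted p 0.000671, edgeR). *Slc38a2*, a transporter of neutral amino acids, rose from 101 ± 17.3 to 438 ± 45.6 CPM (2.11, adjusted p 2.75e-08, edgeR). *Cebpb*, a transcription factor of the acute phase and of fasting metabolism and a dimer partner of ATF4, rose from 73.9 ± 14.3 to 297 ± 29.2 CPM (2.004, adjusted p 8.54e-08, edgeR). *Jdp2*, *Atf3* and *Gpt2* were the other genes that rose and *Bbc3* (PUMA) the gene that fell, named here after their values were seen. *Atf3* rested on only 8 to 34 counts per library and *Jdp2* on 10 to 93. The list joins genes that many other signals also regulate.

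Of 19 tested genes of serine, folate and proline metabolism, *Sds* and *Serinc3* were higher. *Sds*, the liver serine dehydratase that turns serine into pyruvate, rose from 106 ± 26.3 to 318 ± 55.5 CPM (1.58, adjusted p 9.18e-06, edgeR), and *Serinc3* had a log2 fold change of 0.29 (adjusted p 0.00298, edgeR).

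**Figure D4:**
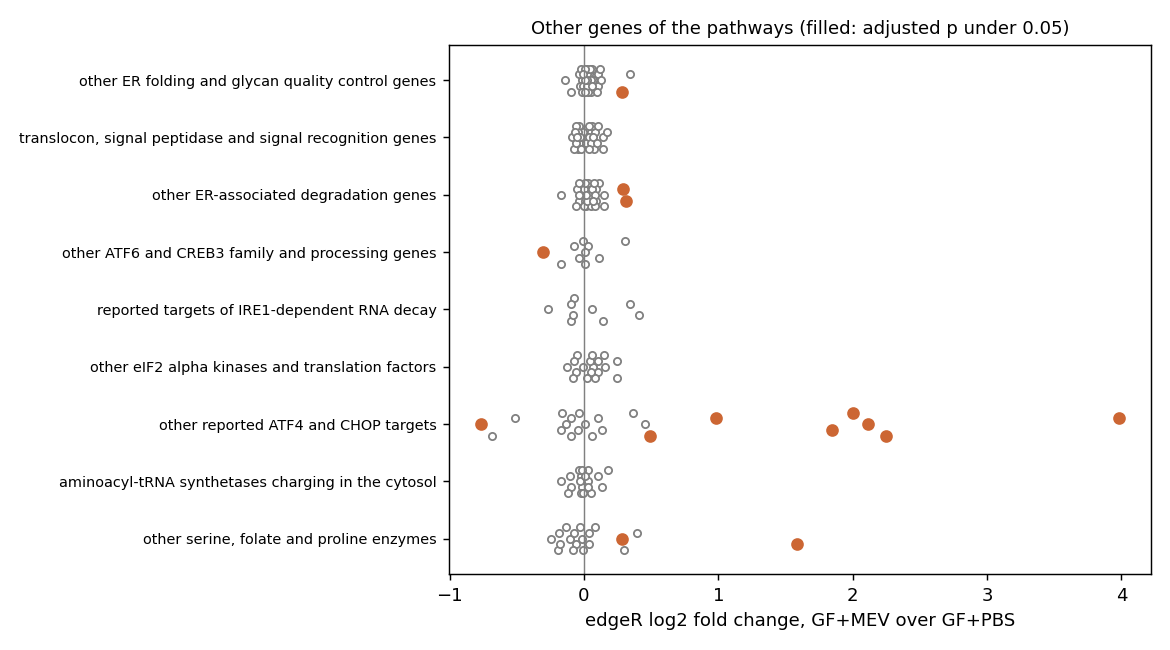
edgeR log2 fold change, GF+MEV over GF+PBS, of each tested gene in 9 lists of other pathway genes (points, 1 row per list), with called genes filled in orange. The rows of ER genes and of tRNA synthetases cluster around 0, and the filled points beyond 1 are *Ddit4* at 3.98, 4 further ATF4 or CHOP targets and *Sds* at 1.58.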

How the data were processed

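Total RNA from whole liver was made into libraries with a NEBNext Ultra RNA kit. The submitters' processing notes name bcl2fastq 2.17, STAR 2.7.3a and GRCm38, and the study's methods name 2-pass mapping, HTSeq for counting and removal of genes under 20 counts. The strand setting and annotation release are not given in the sources used here, so reads of overlapping antisense genes cannot be told apart. The authors deposited raw counts per Ensembl gene for 12148 genes, without normalization. 5 further columns of the table match no described sample and were not used. Groups were taken from the labels, with 5 livers in each.

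Symbols, positions and exon lengths came from GENCODE M21 (GRCm38), in which 5 identifiers had no symbol, and list genes were counted where that annotation holds their symbol. Genes with at least 20 counts over the 10 libraries were tested (12147) in R 4.3.3 with edgeR 4.0.16 (TMM, quasi-likelihood test, Benjamini-Hochberg threshold 0.05, group as the only term). CPM used TMM library sizes. For SEs and 95% intervals, log2 CPM was computed with 2 as the prior count. RPKM divided CPM by the union exon length. Single ratios were tested by exact two-sided permutation of the 10 livers in NumPy 2.4.6, with the Benjamini-Hochberg step in SciPy 1.17.1. Alternatives were DESeq2 1.42.0, limma-voom 3.58.1, other scalings and filters, a replicate block and left-out or summed libraries. The fits were tested on simulated counts.

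The members and lists were chosen with earlier results of these data known, and ratio pairs and promoter motifs after values were seen. Every member is named, from each list the called genes up to the 4 with the largest change, marker and clock genes beside a result, and genes sharing a member's exons. Within groups, all 20 pairs of libraries differed by more than sampling noise (chi-square per gene at least 6.36), so no library was a copy. With counts of this depth, intervals cover the spread between livers and not counting error alone.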

Additional observations from a re-analysis of the deposited data

Results flagged for a closer look

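In 5 of the 74 groups of 5 livers that were tested (37 members in both groups), 1 liver stood further from the rest than Dixon's 95% limit. Chance gives about 1 flagged group in 20, or 3.7 in 74. *Dnajc3* was at 259.0 CPM in GF+MEV replicate 4, against 202 to 214 CPM in the other 4 livers of that group. *Hyou1* was at 152 CPM in GF+MEV replicate 1 against 100.4 to 115 CPM, and *Atf5* in the same liver at 294 CPM against 216 to 234 CPM. In GF+PBS, *Ern1* reached 74.8 CPM in replicate 2 where the others held 43.0 to 51.5 CPM, and *Eif2ak3* reached 16.9 CPM in replicate 5 where the others held 15.3 to 15.7 CPM. None of these genes was called, and no called gene had such a liver.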

How the results depend on the processing

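Over 22 alternatives (tools, scalings, filters, a block and left-out or summed libraries), *Herpud1*, *Ppp1r15a*, *Xbp1* and *Atf4* kept their direction and stayed called. Their log2 fold changes ran from 1.14 to 1.47, 0.67 to 0.99, -0.46 to -0.36 and -0.44 to -0.30. Of 814 member values, 807 kept their side of the threshold and 7 passed it newly, while 16 uncalled members changed sign in some setting. Without GF+PBS replicates 1 and 3, the number of members called higher was 4 in place of 2, through *Creld2* and *Asns*. *Ppp1r15b* was called without GF+PBS replicates 2, 4 and 5 (0.39, adjusted p 0.006, edgeR). The cause was not tested.

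Deviations from the group means correlated weakly between same-numbered livers (0.17, -0.08, -0.05, -0.19 and 0.06). Such values cannot show whether the livers were paired by design. With the replicate block, 792 genes were called in place of 928, and the members called were 3 higher and 2 lower, *Chac1* being the added gene (0.66, adjusted p 0.0436, edgeR). The number of pathway list genes called was 14, and 11 to 15 under the alternatives, with *Pdia5* and *Atf3* called in 20 of 22, *Serinc3* in 21, and *Edem3*, *Nfyb* and *Ube2g2* in 13, 11 and 10. With GF+PBS replicates 1 and 3, and 4 and 5, summed, 561 genes were called. Of called genes, 53.9% were higher in GF+MEV, 41.2% with upper-quartile scaling and 32.5% with library size only, which moved the median of all genes by at most -0.07. Among the members, low counts limit *Ddit3*, *Mthfd2* and *Psat1*, the last with 17 to 40 counts per library.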
